A study of Mus musculus with 194 samples.

Results

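The comparison set transposon insertions read from DNA against transposon insertions read from RNA in mouse cortex. Its members were the 3 BrokenHeart tables and the 2 C57bl6J tables, chosen by their labels, 5 of the 47 insertion tables used by the series. The question was what the RNA readout favours and what it misses along the genome.

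In the calling card method a transposase carries a transposon into the genome at the bases TTAA, and the transposons left behind record where the enzyme could reach the DNA. A self-reporting transposon (SRT) carries its own promoter, and its transcript runs on into the flanking genome, so that the site can be recovered from RNA. An inserted BrokenHeart transposon is instead recovered from genomic DNA, closed to a circle by self-ligation and amplified by inverse PCR, so its recovery does not require a transcript.

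All mice received adeno-associated virus on postnatal day 0 to 1, and cortex was collected. BrokenHeart DNA came from cortex given a pool of 20 barcoded transposons, and its strain and its age at collection are not given in the sources used here. C57bl6J mice received Cre-independent SRT viruses, and their cortices were divided into 10 parts whose RNA was read with separate indexes. For reference, 24 further SRT cortex tables were used, 6 each of Syn1Cre (a line used for Cre in neurons), GFAPCre (a line used for Cre in astrocytes) and their Cre-negative groups Syn1CreNeg and GFAPCreNeg, which with C57bl6J makes 26 RNA-read replicates. The labels number the tables as replicates and do not say that each is a separate animal, so the p-values measure the spread between these tables. All BrokenHeart replicates are listed under a single sample, and some RNA-read samples pool parts of several groups. Tests against the 26 RNA-read replicates treat all tables as exchangeable, although these fall into groups that differ among themselves. Their p-values do not take groups or pools into account. Readout, transposon construct, barcode scheme and depth all differ between BrokenHeart and the RNA-read groups, and their parts in any difference cannot be told apart.

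The DNA tables were shallow. BrokenHeart replicates held 58273, 98197 and 42511 insertions, and the C57bl6J replicates held 1545951 and 2186743. An insertion is 1 line of a table. In BrokenHeart no 2 lines shared position, strand and barcode, while in C57bl6J, where a barcode can stand for 2 parts of a cortex, 2.07% and 2.22% of lines repeated those of another. Total reads were 562094 to 645427 in BrokenHeart and 4836952 and 8887609 in C57bl6J. The log10 count was 1.47 lower in BrokenHeart, and the groups did not overlap (exact two-sided permutation test, p = 0.1, the smallest that 3 against 2 allow, adjusted p = 0.106 over 18 measures). Against all 26 RNA-read replicates, p was 0.000547 (exact permutation test, adjusted p = 0.00123). Some of the shares below moved with depth among the RNA-read tables themselves. The 3 shallowest of those, Syn1CreNeg replicates 1 to 3 with 107483, 97519 and 119059 insertions, are therefore set beside BrokenHeart where they bear on a result, with no test.

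Many of the sites recovered by DNA were also recovered by RNA. Of the BrokenHeart positions, 51.6%, 51.6% and 53.8% in the 3 replicates lay on a position of the C57bl6J tables. In turn, 4.68% of C57bl6J positions lay on a BrokenHeart position. These shares depend on the numbers of distinct positions, 174717 in BrokenHeart and 1857759 in C57bl6J. No level expected by chance was computed. Positions of C57bl6J replicate 1 held 37.1%, 37.1% and 39.2% of BrokenHeart positions and 33.9% of C57bl6J replicate 2 positions. Positions of C57bl6J replicate 2 held 43.5%, 43.3% and 45.8% of BrokenHeart positions and 44.9% of C57bl6J replicate 1 positions. The BrokenHeart share rose with recurrence. Of positions seen in 1 BrokenHeart replicate 47.6% were also C57bl6J positions, of those seen in 2 82.7% and of those seen in 3 93.7%. At equal depth, with every table thinned to 42509 insertions, BrokenHeart replicates shared 5.12% to 6.15% of their positions with each other and 2.93% to 3.36% with a C57bl6J replicate, and the C57bl6J replicates shared 4.44%. Over 2541 windows of 1 Mb at that depth, Pearson correlations were 0.825 to 0.860 within BrokenHeart, 0.680 to 0.756 between the groups and 0.923 within C57bl6J. These are descriptions of tables that share the same windows, gene density and target sites. Among these 5 tables, each resembled those of its own group more than those of the other, in shared positions and in correlation. The other RNA-read tables were not compared in this way, so group and readout cannot be told apart here.

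The TTAA target was present under both readouts. Within the promoter windows for which sequence was at hand, 96.6%, 97.8% and 96.8% of BrokenHeart positions read TTAA, and 100% of the positions of both C57bl6J tables did. A T before or an A after the motif, the same base read from either strand, was present at 46.8% to 48.5% of flanks in BrokenHeart and at 47.7% and 46.9% in C57bl6J, against 37.7% for all 30962 TTAA motifs of those windows. A further 0.272% to 0.645% of BrokenHeart positions lay 1 base after a TTAA and 0.271% to 0.806% lay 1 base before one.

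BrokenHeart had a larger share of insertions at the starts of genes than C57bl6J, but this share also followed depth. BrokenHeart placed 7.13%, 6.80% and 8.15% of insertions within 1 kb of a start of a protein-coding gene, against 4.30% and 4.14% in C57bl6J, where such positions make up 1.44% of the genome span. The means were 7.36% ± 0.706 (SD, n = 3) and 4.22% ± 0.114 (SD, n = 2), with no overlap (exact permutation test, p = 0.1, adjusted p = 0.106). Over all 26 RNA-read replicates the range was 4.14% to 6.77%, just below the lowest BrokenHeart replicate (exact permutation test, p = 0.000274, the smallest that 3 against 26 allow, adjusted p = 0.000821). Gene starts were taken from the strand-resolved starts of 17273 of 21627 protein-coding genes (79.9%), in RefSeq's annotation of GRCm38.p6.

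The lowest RNA-read values were those of the 2 deepest tables, both C57bl6J, and the highest that of a shallow one. Syn1CreNeg replicates 1 to 3 had 6.77%, 6.50% and 6.19%, and GFAPCre replicate 2, with 1505413 insertions, had 4.59%. BrokenHeart replicate 2, at 98197 insertions, stood at 6.80% beside the 6.50% of Syn1CreNeg replicate 2, at 97519. Counting distinct positions gave a difference from C57bl6J of 4.13 percentage points. Thinning all tables to 1 number of insertions gave 3.21. A random draw of lines keeps the expected share of a table, so thinning cannot test the part of depth. At gene starts the parts of depth and readout cannot be told apart.

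At the other end of genes the order turned, and here the shallow RNA-read tables did not approach BrokenHeart. Within 1 kb of a 3' end the BrokenHeart share was 1.45%, 1.48% and 1.5%, against 2.01% and 1.85% in C57bl6J and 1.29% of the genome span. All 3 BrokenHeart replicates lay below all 26 RNA-read replicates, which ranged from 1.77% to 2.18% (exact permutation test, p = 0.000274, adjusted p = 0.000821). The values of Syn1CreNeg replicates 1 to 3 were 2.01%, 2.15% and 2.16%. The ratio of starts to 3' ends was 4.91, 4.58 and 5.43 in BrokenHeart, 2.14 and 2.23 in C57bl6J and 3.37, 3.03 and 2.87 in Syn1CreNeg replicates 1 to 3.

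**Figure D1:**
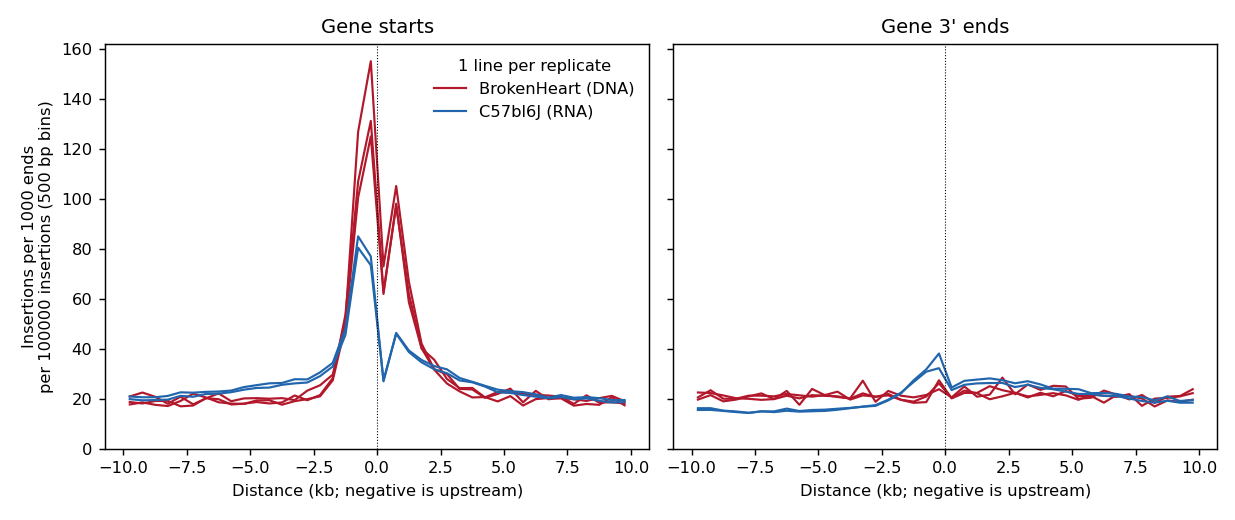
Insertions around gene starts (left) and gene 3' ends (right) in bins of 500 bp, as insertions per 1000 ends per 100000 insertions, with 1 line per replicate. In the bin just upstream of starts the BrokenHeart lines stand at 131, 125 and 155 and the C57bl6J lines at 77.0 and 73.4, while just before 3' ends the C57bl6J lines rise to 38.1 and 32.2 and the BrokenHeart lines stand at 27.4, 26.2 and 23.8.

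The profile around starts had the same outline under both readouts, with a dip in the 500 bases just downstream of the start. In that bin BrokenHeart had 62.9, 61.9 and 73.0 insertions per 1000 starts per 100000 insertions and C57bl6J had 27 and 27.4. In the next bin, 500 to 1000 bases into the gene, they had 97.2, 98.0 and 105 against 46.3 and 46.0. Farther out the order was opposite: between 2.5 and 2 kb upstream of starts, BrokenHeart had 21.5, 21.0 and 25.4 and C57bl6J had 30.6 and 29.1. All BrokenHeart replicates were above both C57bl6J replicates in every bin that begins from -1500 to 1500 bases, and below both in every bin that begins from -6000 to -2000 bases. Farther upstream the groups overlapped in most bins.

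Outside genes BrokenHeart had a smaller share close to a gene. Of all insertions, 6.66%, 6.77% and 7.01% in BrokenHeart and 9.36% and 8.98% in C57bl6J lay 1 to 10 kb beyond the nearest gene, and all 3 BrokenHeart replicates were below the lowest of 26 RNA-read replicates, 7.59% (exact permutation test, p = 0.000274, adjusted p = 0.000821). With both kinds of gene end pooled, 8.73%, 8.42% and 9.86% of BrokenHeart insertions and 6.78% and 6.41% of C57bl6J insertions lay within 1 kb of an end of a protein-coding gene (exact permutation test against C57bl6J, p = 0.1, against 26 RNA-read replicates, p = 0.00493, adjusted p = 0.00739). Syn1CreNeg replicates 1 to 3 had 8.35%, 8.17% and 8.46% at 1 to 10 kb, apart from BrokenHeart, and 8.98%, 8.70% and 8.65% at the pooled ends, which overlap it.

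Promoter sequences at both extremes are shown to let the target sites be seen. The first pair below had the highest excess of insertions per 100000 in BrokenHeart over C57bl6J, and the second pair the highest excess in C57bl6J, among 21016 windows of 250 bases that end at a start (neighbours skipped). The windows come from RefSeq's GRCm38.p6 table, are written 5′ to 3′ on the gene's strand, and have each TTAA in capitals. They were chosen by their counts, which are given as a description with no test.
Serpinb9: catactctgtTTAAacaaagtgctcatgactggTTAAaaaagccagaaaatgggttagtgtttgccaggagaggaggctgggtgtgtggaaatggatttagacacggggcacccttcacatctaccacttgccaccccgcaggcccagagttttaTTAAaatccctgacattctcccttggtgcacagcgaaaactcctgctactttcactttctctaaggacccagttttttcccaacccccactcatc
Tram1l1: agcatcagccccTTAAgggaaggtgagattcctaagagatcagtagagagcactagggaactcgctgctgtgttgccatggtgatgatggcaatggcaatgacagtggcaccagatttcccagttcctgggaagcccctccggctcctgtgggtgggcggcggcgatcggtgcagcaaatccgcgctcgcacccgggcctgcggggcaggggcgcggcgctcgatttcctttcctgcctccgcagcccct
Zbtb38: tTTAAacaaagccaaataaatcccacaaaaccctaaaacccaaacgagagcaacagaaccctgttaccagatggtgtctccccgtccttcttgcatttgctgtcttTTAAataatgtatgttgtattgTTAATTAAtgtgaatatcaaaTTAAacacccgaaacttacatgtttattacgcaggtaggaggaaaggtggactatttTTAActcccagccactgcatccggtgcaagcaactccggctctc
Ano3: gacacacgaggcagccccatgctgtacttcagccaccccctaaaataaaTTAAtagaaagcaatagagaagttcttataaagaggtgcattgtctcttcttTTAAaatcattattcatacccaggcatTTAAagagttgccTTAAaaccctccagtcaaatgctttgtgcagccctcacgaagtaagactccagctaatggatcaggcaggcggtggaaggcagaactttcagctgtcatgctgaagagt

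The window of Serpinb9, which encodes a serine protease inhibitor, lies at chr13:33004291-33004540 on the plus strand. Its TTAA 95 bases before the start held 4, 4 and 2 BrokenHeart insertions and 3 and 4 C57bl6J insertions, from tables that differ many-fold in depth. The window of Tram1l1 lies at chr3:124320787-124321036 on the plus strand, is 62.4% G+C and has a single TTAA, with 4, 7 and 1 insertions in BrokenHeart and 2 and 7 in C57bl6J. The window of Zbtb38, a zinc finger gene, at chr9:96731676-96731925 on the minus strand, has 6 TTAA, all hit in C57bl6J, with 40 and 42 insertions against 0, 1 and 0 in BrokenHeart. The window of Ano3, a member of the anoctamin family, at chr2:110840060-110840309 on the minus strand, held 20 and 30 insertions in C57bl6J and none in BrokenHeart. At the depth of BrokenHeart, counts of 0 or 1 in a single window do not show that its sites are avoided. Of the 21016 windows, 45.4% hold a TTAA, searched on both strands since the motif is its own reverse complement.

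The readouts parted with the base composition of promoters. Each TTAA was counted once over all promoter windows of 300 bases, and insertions on it were given per 1000 sites per 1000000 insertions. In windows under 40% G+C, BrokenHeart had 109 ± 17.6 (SD, n = 3) and C57bl6J 116 ± 3.7 (SD, n = 2), which overlap. In windows of 40% to 50% the values were 416 ± 23.6 and 256 ± 6.8, in windows of 50% to 60% they were 894 ± 75.0 and 435 ± 10.7, and at 60% or more they were 1041 ± 128 and 488 ± 11.8. BrokenHeart use of a target site thus rose more steeply with G+C than C57bl6J use. The other RNA-read replicates stood between them, at 575 to 999 in windows of 60% or more, and their highest replicate overlapped the lowest BrokenHeart replicate, at 926. Syn1CreNeg replicates 1 to 3 had 999, 881 and 781 there, and 170, 192 and 163 in windows under 40%, above the 102, 95.5 and 129 of BrokenHeart. In the promoter windows of protein-coding genes only, BrokenHeart had 1.10%, 1.01% and 1.24% of insertions and C57bl6J 0.583% and 0.571% (exact permutation test against 26 RNA-read replicates, p = 0.00274, adjusted p = 0.00493). However, Syn1CreNeg replicates 1 to 3, with 1.09%, 1.07% and 0.941%, overlapped BrokenHeart. As at gene starts, the part of depth cannot be told apart.

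**Figure D2:**
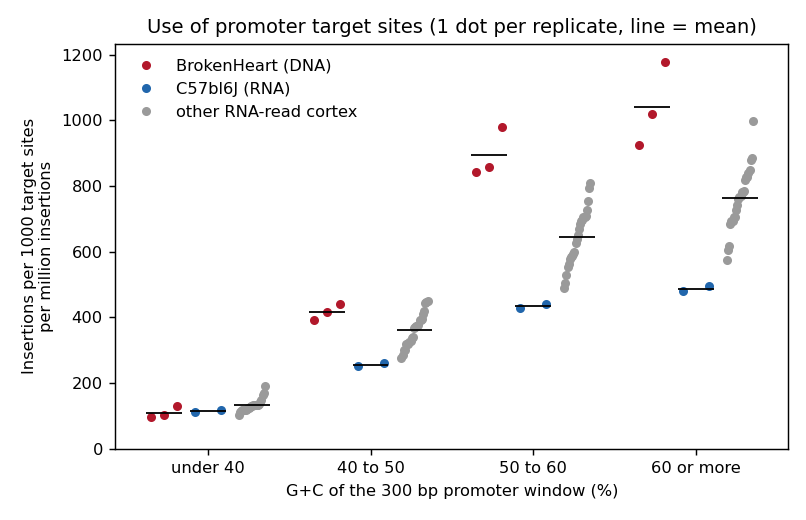
Insertions per 1000 TTAA sites per 1000000 insertions, in promoter windows split by their G+C content, with 1 dot per replicate and the mean as a line. The groups stand together under 40% G+C and part above it, where the BrokenHeart mean reaches 1041 and the C57bl6J mean 488.

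Reads per insertion rose towards promoters, and more so in the C57bl6J tables. Promoter windows here are those of protein-coding genes. C57bl6J insertions in them had 4.52 and 6.14 reads on average, against 3.08 and 4.16 in gene deserts. BrokenHeart insertions had 10.1, 7.07 and 14.2 in promoter windows and 9.68, 6.51 and 13.4 in deserts. On a log2 scale the promoter excess was 0.0885 ± 0.0330 (SD, n = 3) in BrokenHeart and 0.557 ± 0.0070 (SD, n = 2) in C57bl6J. Against all 26 RNA-read replicates, which ranged from 0.111 to 0.875, the exact permutation p was 0.0203 (adjusted p = 0.0280), with 2 of 3 BrokenHeart replicates below all of them. The shallow Syn1CreNeg replicates 1 to 3 stood at 0.137, 0.145 and 0.240, so the distance from BrokenHeart was smaller for them than for C57bl6J. The share of insertions with 1 read was lower in promoters: 31.2% and 24.9% in promoter windows against 42.6% and 31.8% in deserts in C57bl6J, and 26.8%, 29.1% and 22.2% against 27.1%, 31.2% and 25.2% in BrokenHeart.

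Reads per insertion overall varied widely among the RNA-read tables. The mean was 9.65, 6.57 and 13.6 reads in BrokenHeart and 3.13 and 4.06 in C57bl6J, with medians of 4, 3 and 4 against 2 and 2. Other RNA-read replicates lay on either side, and against all 26 the log10 mean had an exact permutation p of 0.566 (adjusted p = 0.599). Between genes and gene deserts, mean reads were nearly even in both groups: the log2 ratio was 0.0085 ± 0.0251 (SD, n = 3) in BrokenHeart and -0.0576 ± 0.0379 (SD, n = 2) in C57bl6J (exact permutation test, p = 0.1), and the sign of that difference turned when the top 1% of reads was left out (-0.0049) and when reads were summed over lines of 1 position (-0.0103).

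Gene length separated the readouts within genes. Genes over 500 kb, which in brain include many large cell adhesion and synaptic genes, took 10.6%, 11% and 9.96% of insertions in BrokenHeart and 14.1% and 14.5% in C57bl6J, and make up 7.40% of the genome span. Their density, the share of insertions over the share of the span, was 1.42 ± 0.0707 (SD, n = 3) against 1.93 ± 0.0403 (SD, n = 2). Every RNA-read replicate had at least 13.7% there, above all 3 BrokenHeart replicates (exact permutation test, p = 0.000274, adjusted p = 0.000821). Genes of 10 to 50 kb went the other way, with 9.01%, 8.84% and 9.64% in BrokenHeart against 6.55% and 6.37% in C57bl6J and at most 8.45% in any RNA-read replicate (exact permutation test, p = 0.000274, adjusted p = 0.000821). Syn1CreNeg replicates 1 to 3 had 15.5%, 15.6% and 15.9% in genes over 500 kb and 8.45%, 8.21% and 8.20% in genes of 10 to 50 kb, so the first difference was at least as large from them as from C57bl6J and the second smaller. Over the 5 classes of gene length the mean density ran from 1.09 to 1.56 in BrokenHeart and from 0.772 to 1.93 in C57bl6J, so BrokenHeart insertions were spread more evenly over gene lengths.

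**Figure D3:**
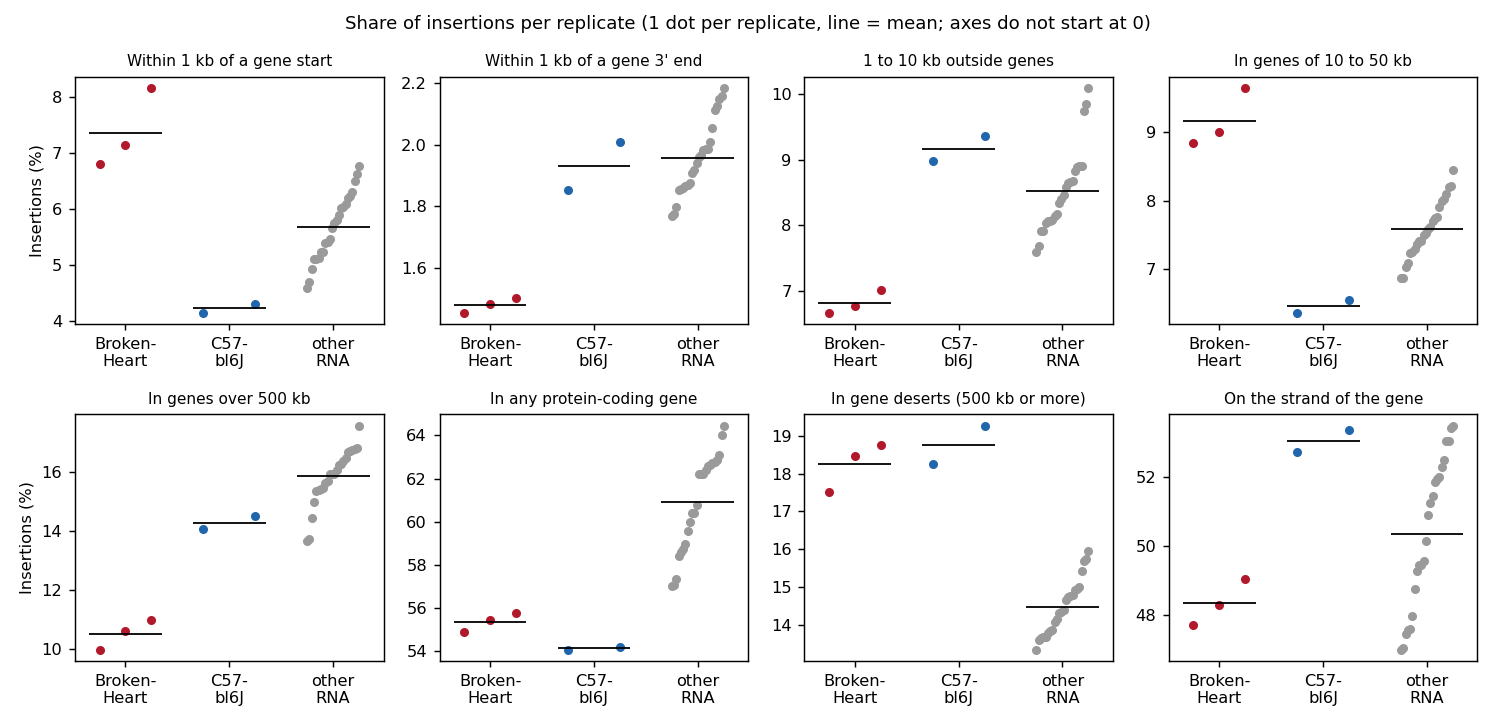
Share of insertions (percent, vertical axes that do not start at 0) in 8 classes of position, with 1 dot per replicate and the mean as a line. BrokenHeart lies apart from every RNA-read replicate for gene starts (6.80% against 6.77% at the closest), 3' ends, 1 to 10 kb outside genes and both gene length classes, while for genes and gene deserts it lies beside C57bl6J and outside the other RNA-read replicates.

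The share in protein-coding genes as a whole did not give a steady order. BrokenHeart had 55.5%, 55.8% and 54.9% in genes and C57bl6J 54.2% and 54.1%, where genes fill 40% of the span (exact permutation test, p = 0.1, adjusted p = 0.106). The other RNA-read groups lay higher, so that against the mean of all 26, 60.4% ± 2.84 (SD, n = 26), BrokenHeart was 5.00 percentage points lower (exact permutation test, p = 0.00411, adjusted p = 0.00672). The direction therefore depends on which RNA-read group is the reference.

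Gene deserts, here intervals of 500 kb or more with no protein-coding gene, were hit less than their size under both readouts. They took 18.5%, 18.8% and 17.5% of BrokenHeart insertions and 18.3% and 19.3% of C57bl6J insertions, while 655 such intervals make up 28.9% of the span. The difference of -0.519 percentage points was within the spread between replicates (exact permutation test, p = 0.6). The other RNA-read replicates had fewer, and against all 26, with a mean of 14.8% ± 1.38 (SD, n = 26), BrokenHeart was 3.45 points higher (exact permutation test, p = 0.00219, adjusted p = 0.00438). C57bl6J replicate 2, at 19.3%, was the highest of the 26. The share in deserts was thus alike in size in both groups of the main comparison, with a difference smaller than its spread.

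Strand and the X chromosome were compared as well. Among insertions in genes of one known strand, 49.0%, 48.3% and 47.7% in BrokenHeart and 52.7% and 53.4% in C57bl6J lay on the gene's strand (exact permutation test, p = 0.1, adjusted p = 0.106). The RNA-read replicates spanned 47.0% to 53.5%, which includes the BrokenHeart values (exact permutation test, p = 0.114, adjusted p = 0.137). Chromosome X held 2.01%, 2.05% and 2.05% in BrokenHeart and 2.31% and 2.43% in C57bl6J, and 2 of 3 BrokenHeart replicates lay below all 26 RNA-read replicates (exact permutation test, p = 0.000547, adjusted p = 0.00123). The labels give no sex, and its part in the X share was not tested.

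Windows along the genome were compared with the quasi-likelihood test of edgeR and Benjamini-Hochberg adjustment. Of 2345 windows of 1 Mb, 794 (33.9%) passed an adjusted p of 0.05, 371 higher and 423 lower in BrokenHeart. At 50 kb the low counts of BrokenHeart left 1309 windows to test, of which 51.5% passed (674 windows): 26.7% were higher and 24.8% lower in BrokenHeart, and in 64.4% the replicates of the groups did not overlap. With totals in place of TMM scaling the split of calls was 283 higher and 457 lower, and the median log2 fold change over windows moved from -0.12 to -0.38. The filter asked for a minimum in any 2 tables, so a window could enter by being high in a single group. Of the 350 windows called higher, 334 entered through BrokenHeart alone, and of the 324 called lower, 251 entered through C57bl6J alone. Among the 301 windows that passed in both groups, 15 were higher (4.98%) and 73 lower (24.3%), or 29.2% in all. The percentages over 1309 windows thus describe the filter as well as the readouts. Without C57bl6J replicate 1 or 2, 182 and 177 windows were called. Without BrokenHeart replicate 1, 2 or 3, 1196 of 26538, 717 of 27024 and 1451 of 27300 tested windows were called, and without replicate 2 the split was 149 higher and 568 lower. The filter kept 14.1% of BrokenHeart and 18.2% of C57bl6J insertions.

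All 16 named windows entered the test only through the group in which they were high, so their adjusted p-values follow in part from that choice. Among the 8 higher in BrokenHeart, the highest fold change was at chr7:46600001-46650000, in Sergef and Tph1. Tph1 encodes a tryptophan hydroxylase of serotonin synthesis. That window held 16, 13 and 9 BrokenHeart insertions and 20 and 25 C57bl6J insertions, a log2 fold change of 4.22 (SE 0.45, edgeR adjusted p = 2.36e-11). Of the 38 BrokenHeart insertions 24 lay at the single position chr7:46607444-46607447 in Sergef, with 9, 8 and 7 in the 3 replicates and 14 different transposon barcodes. C57bl6J had 5 and 10 insertions at that position, so the site was used under both readouts. A C57bl6J table can hold no more than 20 lines at 1 position, which limits its rate there. A gene-free window at chr16:25450001-25500000 followed, with 11, 12 and 9 insertions against 27 and 35 (log2 fold change 3.52, SE 0.45, edgeR adjusted p = 5.49e-09). The other 6 had log2 fold changes of 2.67 to 2.98. Single positions held 10 of 32 BrokenHeart insertions in the window on chromosome 16 and 13 of 31 in the window chr8:126600001-126650000.

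Of the 8 named windows lower in BrokenHeart, those in protein-coding genes are described first. The share of such windows over all tested windows is not given here, so the named windows of either direction do not show a lean towards or away from genes. The window chr3:80750001-80800000 in Gria2, which encodes an AMPA glutamate receptor subunit, held 1, 4 and 3 BrokenHeart insertions and 553 and 786 C57bl6J insertions (log2 fold change -2.90, SE 0.38, edgeR adjusted p = 7.99e-09). The window chr6:15150001-15200000 in Foxp2, a transcription factor of deep-layer neurons, held 4, 5 and 1 against 507 and 620 (log2 fold change -2.34, SE 0.38, edgeR adjusted p = 7.33e-07). The window chr2:71500001-71550000, with Metap1d, Dlx1 and Dlx2, held 5, 5 and 3 against 543 and 727 (log2 fold change -2.13, SE 0.34, edgeR adjusted p = 5.54e-07). Dlx1 and Dlx2 encode transcription factors of interneurons. The windows in Cacna2d1, a calcium channel subunit, and in Fam172a had log2 fold changes of -2.25 and -2.18. The lowest of all, at chr3:17600001-17650000 with no protein-coding gene, held 2, 6 and 2 against 673 and 1043 (log2 fold change -2.93, SE 0.35, edgeR adjusted p = 4.88e-10).

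Gene loci, each a protein-coding gene with 10 kb on either side, gave the names of genes. Of 1882 loci tested, 39.7% passed (748 loci), 18.7% higher and 21.0% lower in BrokenHeart, and in 56.6% the replicates of the groups did not overlap. Of the 352 loci called higher, 251 entered through BrokenHeart alone, and of the 396 called lower, 104 entered through C57bl6J alone. Among the 1072 loci that passed in both groups, 36.7% were called, 101 higher (9.42%) and 292 lower (27.2%), with a median log2 fold change of -0.16. Of these, 210 were genes over 500 kb, with 22 higher, 96 lower and a median of -0.34. Only 19 were genes of 10 to 50 kb, too few to set beside the share of insertions given above. The median over all tested loci was 0.04. Loci of neighbouring genes overlap and can share insertions.

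The 12 loci named for the lowest fold changes included developmental regulators of cortical neurons, with no share of such genes over all tested loci beside them. Bhlhe22, Metap1d, Fign, Bahcc1 and Tbr1 entered through C57bl6J alone, and the other 7 passed in both groups. For loci that entered through C57bl6J alone, 104 of 197 were called lower and 0 higher. The adjusted p-values of such loci follow in part from that entry. Bhlhe22, a transcription factor of cortical neurons, held 3 insertions in each BrokenHeart replicate and 469 and 650 in C57bl6J, or 64.8, 38.6 and 90.5 normalised insertions per 1000000 (CPM) against 397 and 396 (log2 fold change -2.79, SE 0.34, edgeR adjusted p = 5.60e-08). Tbr1, which specifies deep-layer projection neurons, had 86.4, 167 and 60.3 CPM against 421 and 443 (log2 fold change -1.84, SE 0.28, edgeR adjusted p = 2.75e-06). Foxp2 had 432, 437 and 241 CPM against 1410 and 1302 (log2 fold change -1.78, SE 0.18, edgeR adjusted p = 2.77e-09). In all of them both C57bl6J replicates stood above all BrokenHeart replicates, as the naming rule required.

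Further loci of this kind were Zbtb18 and Pou3f3, transcription factors of cortical neurons, with log2 fold changes of -2.10 (SE 0.24) and -1.79 (SE 0.29). Epha3, a receptor of ephrin guidance signals, had 259, 231 and 392 CPM against 1074 and 1197 (log2 fold change -2.05, SE 0.20, edgeR adjusted p = 1.49e-09). Fam172a (-2.13), Metap1d (-2.06), Fign (-2.0), Bahcc1 (-1.89), Tank (-1.83) and Zfp804a (-1.79) complete the 12 by log2 fold change. Metap1d lies beside Dlx1 and Dlx2 in the window named above, and Tank lies near Tbr1. Tank, Tbr1 and Zbtb18 did not pass with distinct positions.

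The 12 loci named for the highest fold changes included a transporter, a channel and a chromatin regulator. Stk39, Slc7a11 and Smarcc1 passed in both groups, and the other 9 entered through BrokenHeart alone. For loci that entered through BrokenHeart alone, 251 of 580 were called higher and 0 lower. The adjusted p-values of such loci follow in part from that entry. Trpm6, which encodes a magnesium channel, had 432, 373 and 664 CPM against 102 and 105 (log2 fold change 2.12, SE 0.24, edgeR adjusted p = 1.94e-08). Cdk5rap2, which encodes a centrosomal protein, had 303, 309 and 272 CPM against 78.8 and 63.3 (log2 fold change 2.09, SE 0.29, edgeR adjusted p = 8.11e-07). Slc7a11, which encodes the cystine transporter of system xc-, had 713, 437 and 634 CPM against 189 and 187 (log2 fold change 1.58, SE 0.20, edgeR adjusted p = 1.48e-07). Sergef (1.97), Fam13c (1.91), Asap1 (1.90), Tbc1d1 (1.89), Snx29 (1.75), Bmper (1.69), Stk39 (1.63), Smarcc1 (1.54) and Irf2bp2 (1.5) complete the list by log2 fold change. Single positions weighed on some of them: 24 of 63 BrokenHeart insertions in Sergef, 16 of 71 in Trpm6, 16 of 70 in Smarcc1 and 13 of 40 in Irf2bp2 lay at 1 position each, whereas no position held more than 4 of the insertions in Asap1, Tbc1d1, Snx29, Stk39, Bmper and Cdk5rap2. Irf2bp2 no longer passed without BrokenHeart replicate 2 or 3. Its flank reaches into the window chr8:126600001-126650000 named above, where 1 position also held 13 insertions, possibly the same position. Without a C57bl6J replicate, 376 and 353 loci were called.

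**Figure D4:**
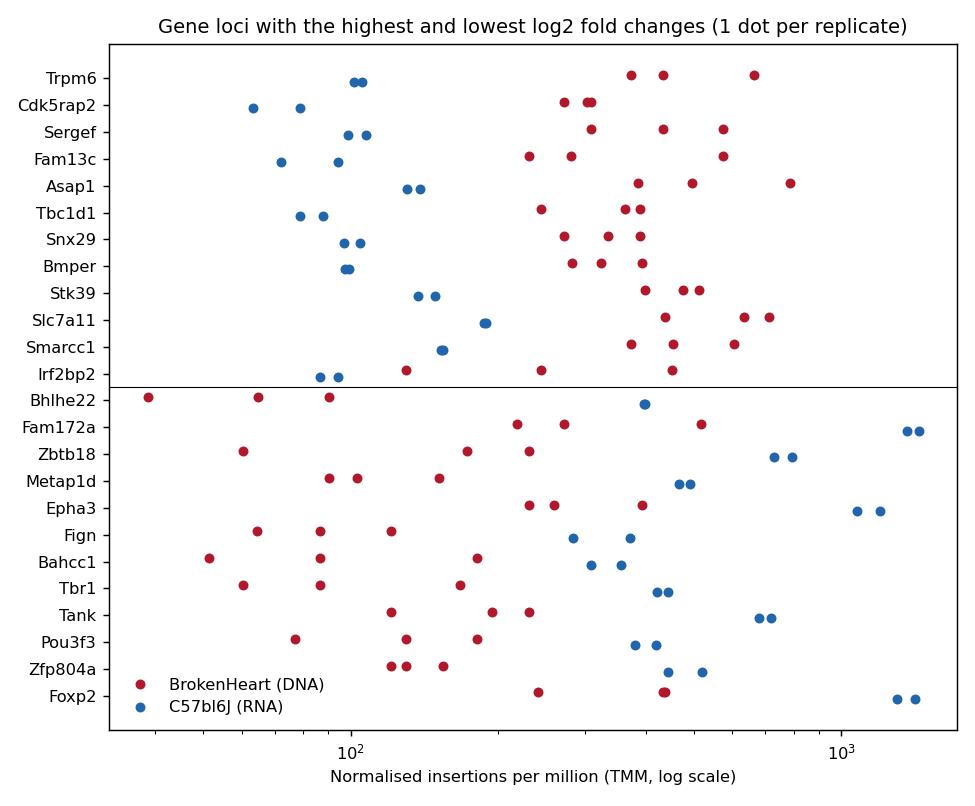
CPM, normalised insertions per 1000000 (TMM scaling, log axis) of the 12 loci with the highest (above the line) and the 12 with the lowest (below it) log2 fold changes, with 1 dot per replicate. In every locus the groups do not overlap, which the choice of loci required; Bhlhe22 stands at 38.6 to 90.5 in BrokenHeart and near 397 in C57bl6J.

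Genes known from cortical projection neurons took a smaller share of insertions in BrokenHeart. Summed over all 15 loci, whether or not they passed the filter, they took 0.299%, 0.339% and 0.287% of insertions in BrokenHeart and 0.627% and 0.582% in C57bl6J. No RNA-read replicate had less than 0.448%, and Syn1CreNeg replicates 1 to 3 had 0.493%, 0.578% and 0.507%. The mean rate was lower in BrokenHeart at 14 of the 15 loci, against 49.4% of the 20282 loci of all genes with an insertion. Of the 12 loci tested, 6 passed in both groups and all 6 were lower, against the 27.2% of such loci called lower, and 6 entered through C57bl6J alone. Slc17a6, a vesicular glutamate transporter and one of the latter, held 3, 6 and 1 insertions against 274 and 359. Cux1, a factor of upper-layer neurons, also entered that way and was at -0.69 (SE 0.30), which did not pass (edgeR adjusted p = 0.0600). The lists were chosen with earlier results of these data known.

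Long synaptic adhesion genes also took a smaller share. The 20 loci together took 1.68%, 1.86% and 1.40% of BrokenHeart insertions, 2.65% and 2.75% in C57bl6J and 2.56% to 3.71% over the 26 RNA-read replicates, without overlap. All 20 passed the filter in both groups, 17 were lower and none was higher, against 27.2% and 9.42% of loci that passed in both. The list was made of long genes, and of the 210 genes over 500 kb that passed in both, 96 were lower and 22 higher. The part of gene length in this result was not tested. Cdh12, a cadherin, was at -1.52 (SE 0.17, edgeR adjusted p = 1.94e-08) and Csmd3 at -1.51 (SE 0.18, edgeR adjusted p = 5.39e-08), while the presynaptic neurexin Nrxn3 was at 0.12 (SE 0.14, edgeR adjusted p = 0.527).

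Interneuron genes took a smaller share in BrokenHeart than in C57bl6J, but did not separate from the RNA-read tables as a whole. Their summed share was 0.148%, 0.104% and 0.153% in BrokenHeart and 0.177% and 0.187% in C57bl6J. The BrokenHeart values were inside the range of the RNA-read replicates, 0.0781% to 0.279%. Against C57bl6J the mean rate was lower at 13 of the 15 loci, beside 49.4% over all loci with an insertion. Of 15 loci 6 were tested, and 4 were lower and 1 higher. Of the 6, 3 passed in both groups and 2 of those were lower, against 27.2% of such loci called lower. The rest entered through a single group, and no locus that entered so was called in the other direction. Dlx1, an interneuron transcription factor that entered through C57bl6J alone, held 2, 2 and 1 insertions against 377 and 483. Gad1, the main enzyme of GABA synthesis, entered through BrokenHeart alone and held 9, 8 and 8 insertions against 68 and 97.

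Astrocyte genes took a larger share in BrokenHeart than in C57bl6J, and a smaller one than in the shallow RNA-read tables. The 16 loci took 0.185%, 0.141% and 0.226% in BrokenHeart and 0.0891% and 0.0962% in C57bl6J, the lowest 2 values of the 26 RNA-read replicates being those of C57bl6J. Syn1CreNeg replicates 1 to 3 had 0.436%, 0.354% and 0.340%, and the highest RNA-read value was 0.498%. The direction therefore depends on which RNA-read group is set beside BrokenHeart. Against C57bl6J the mean rate was higher at 15 of 16 loci, beside 50.6% over all loci with an insertion. Only 5 loci were tested, of which 3 were higher and none lower. Of the 5, 3 passed in both groups and 1 of those was higher, against 9.42% of such loci called higher. The 2 others called higher entered through BrokenHeart alone, where no locus was called lower. Those were Gjb6 and Gja1, the gap junction proteins of astrocytes, with 12, 8 and 11 insertions against 37 and 62, and 6, 10 and 3 against 36 and 62. Slc4a4, a bicarbonate transporter, passed in both groups and was at 0.94 (SE 0.17, edgeR adjusted p = 2.97e-05). The glutamate transporters Slc1a2 (0.20, SE 0.22) and Slc1a3 (0.15, SE 0.26) did not pass the threshold. Which cells the viruses entered is not given, and in bulk tissue fewer marked cells of a type and less transcript per insertion cannot be told apart.

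**Figure D5:**
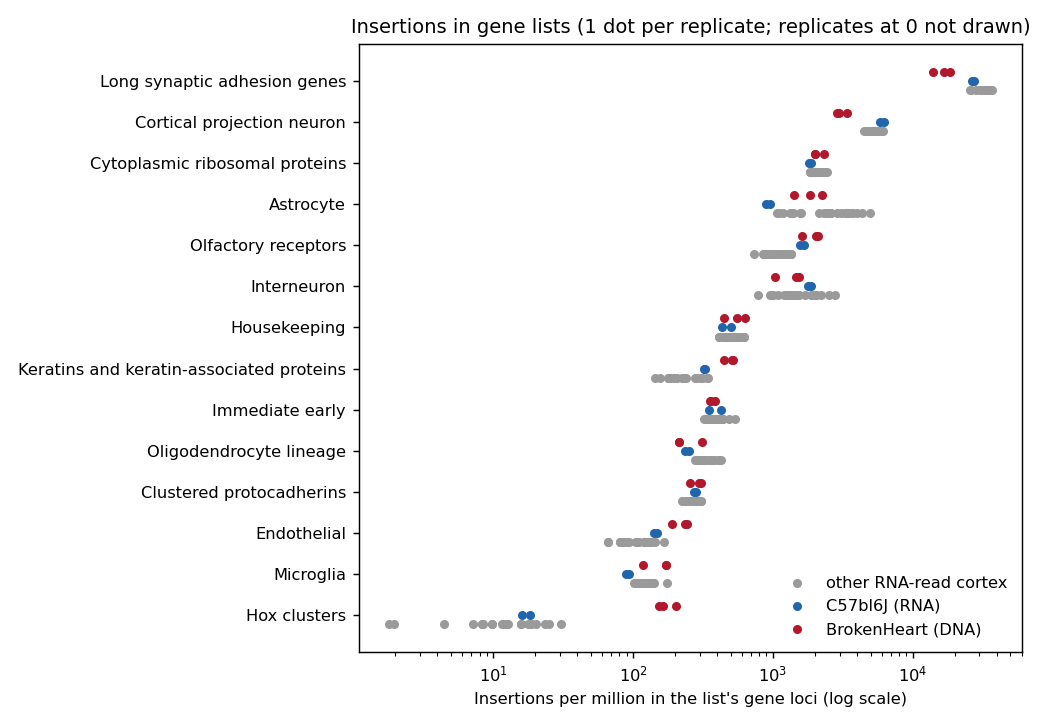
Insertions per 1000000 in the loci of each gene list (log axis), with 1 dot per replicate, for BrokenHeart, C57bl6J and the other RNA-read cortex replicates. BrokenHeart lies to the left of every RNA-read replicate for projection neuron and long adhesion genes and to the right of every one for the Hox clusters, keratins and endothelial genes.

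The Hox clusters took a larger share of insertions in BrokenHeart. The 4 clusters hold 39 homeobox genes that pattern the body axis and are largely silent in forebrain. They took 0.0154%, 0.0204% and 0.0165% of BrokenHeart insertions, which are 9, 20 and 7 insertions, and 0.00162% and 0.00183% of C57bl6J insertions, which are 25 and 40. No RNA-read replicate exceeded 0.00308%. Counted over each cluster's whole span, from the first to the last gene with 10 kb on either side and so with the gaps between loci, Hoxa held 2, 7 and 1 insertions in BrokenHeart against 3 and 8 in C57bl6J, Hoxb held 3, 4 and 5 against 8 and 12, and Hoxc held 4, 8 and 1 against 8 and 13, although the C57bl6J tables were far deeper. Hoxd held 0, 2 and 0 against 8 and 11. No Hox locus passed the count filter, so none was tested.

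Keratins and keratin-associated proteins, genes of epithelia and hair, showed a smaller difference of the same direction. Their 109 loci took 0.0515%, 0.0509% and 0.0447% in BrokenHeart, 0.0327% and 0.0322% in C57bl6J and at most 0.0345% in any RNA-read replicate. The 8 endothelial genes took 0.0189%, 0.0244% and 0.0235% (11, 24 and 10 insertions) against 0.0149% and 0.0140%, with a highest RNA-read value of 0.0167%. For microglia genes all 3 BrokenHeart replicates were above both C57bl6J replicates, at 0.0172%, 0.0173% and 0.0118% against 0.00932% and 0.00896%, but the RNA-read range reached 0.0174%.

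Other lists did not separate BrokenHeart from all RNA-read replicates. Olfactory receptors, silent in cortex and lying in large clusters, took 0.161%, 0.204% and 0.212% in BrokenHeart and 0.156% and 0.168% in C57bl6J, which overlap. The RNA-read median was 0.102%, and Syn1CreNeg replicates 1 to 3 had 0.0986%, 0.0851% and 0.0933%, below BrokenHeart. Vomeronasal receptors ranged from 0.00706% to 0.0275% and taste receptors from 0 to 0.0141% in BrokenHeart, from 0 to 22 insertions a replicate. Oligodendrocyte genes (0.0212% to 0.0309% against 0.0250% and 0.0234%), immediate early genes (0.0353% to 0.0387% against 0.0425% and 0.0348%), housekeeping genes (0.0447% to 0.0635% against 0.0499% and 0.0430%) and clustered protocadherins (0.0257% to 0.0306% against 0.0275% and 0.0280%) overlapped between the groups. For immediate early genes Syn1CreNeg replicates 1 to 3 stood above BrokenHeart, at 0.0428%, 0.0441% and 0.0428%. Apart from these and the olfactory receptors, the lists of this paragraph overlapped those replicates. Ribosomal protein genes were slightly higher in BrokenHeart, with 0.201%, 0.201% and 0.233% against 0.186% and 0.181%, and within the RNA-read range up to 0.246%. Of these lists, 34 protocadherin loci that share insertions passed the filter with no call, 4 ribosomal loci with 1 higher, Ywhaz among housekeeping genes at 0.39 (SE 0.37) and Mbp among oligodendrocyte genes at -0.37 (SE 0.37).

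Positions hit repeatedly were followed one by one, with the barcodes as a partial guide to independent insertions. Of BrokenHeart positions with more than 1 barcode, 8.38%, 5.44% and 10.2% held barcodes that differ by 1 base, as 2 of the 190 pairs of listed barcodes do. The part of misread bases in these was not tested. Among the next positions, 16 BrokenHeart insertions each lay at chr5:51568136-51568139 in Ppargc1a, a transcriptional coactivator of metabolism, at chr9:110230035-110230038 in Smarcc1, a chromatin remodelling subunit, at chr19:18889305-18889308 in Trpm6 and at chr19:28012160-28012163 in Rfx3. They carried 12, 12, 9 and 10 different barcodes and were found in all 3 replicates. C57bl6J had 8 and 11, 8 and 7, 1 and 4, and 9 and 11 insertions at them. In every one the rate was higher in BrokenHeart, at 80.4 insertions per 1000000 against 5.09, 4.02, 1.34 and 5.36. These positions were picked for their BrokenHeart counts, so the excess is a description. The C57bl6J tables reached 19 and 20 lines at 1 position, where 10 parts read on 2 strands allow 20, and BrokenHeart reached 8 or 9. At equal depth, 3.63%, 3.23% and 4.60% of BrokenHeart positions and 2.38% and 1.96% of C57bl6J positions held more than 1 insertion, and the RNA-read range of 1.96% to 6.91% included both (exact permutation test against 26, p = 0.895).

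Barcodes bore on how insertions were counted. Of 20 transposon barcodes listed for BrokenHeart, 18 were present in each of the 3 tables, and the same 2 were missing from all. The most frequent barcode had 8.96% to 9.30% of insertions and the least frequent 1.57% to 2.14%. In C57bl6J replicate 1 a single primer barcode held 0.101% of insertions, while the lowest of replicate 2 held 5.62%.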

How the data were processed

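Insertion tables were used as the authors deposited them, each line holding a position, strand, barcode and raw read count. The submitters' processing notes name Novoalign, Bowtie2 and the build mm10, without versions; their roles and filters are not given in the sources used here. Replicates were taken from the labels. BrokenHeart starts are 1 higher than those of the RNA tables, and both were placed on the same base through their shared end. Insertions on chromosomes 1 to 19 and X were annotated with RefSeq genes of GRCm38.p6, the same build as mm10. Gene starts and strands came from RefSeq's promoter table. 18 of 47 tables were not used here.

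Shares per table were compared by exact two-sided permutation tests with Benjamini-Hochberg adjustment over 18 measures per comparison, 5 of them added after the first results. Counts in 50 kb windows and gene loci (gene body with 10 kb flanks) were tested with edgeR 4.0.16 in R 4.3.3 (TMM factors, a filter asking for a minimum in any 2 tables, quasi-likelihood test), on these 5 tables; DESeq2 1.42.0, scaling by totals, no filter, distinct positions, at least 2 reads, thinning, other sizes and a replicate block were alternatives. The scripts were tested on simulated data. Windows and loci were named by rule: adjusted p under 0.05, no overlap between groups, mean at or above the median, then the 8 (windows, at least 1 Mb apart) or 12 (non-overlapping loci) highest and lowest fold changes; members of gene lists could also be named. Positions and promoter windows were chosen after their counts were seen. The members and lists were chosen with earlier results of these data known. At BrokenHeart depth of 42509 to 98193 insertions, a 50 kb window holds few insertions, and its counting error is large.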

Additional observations from a re-analysis of the deposited data

How the results depend on the processing

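Several differences from C57bl6J in shares and counts kept their direction under each alternative run for them, including each replicate left out. They were those for insertions per replicate, reads per insertion, genes, gene ends, gene starts, 3' ends and genes over 500 kb. No p could fall below 0.1 with 3 against 2. For shares, thinning at random keeps the expected value, so a kept direction under it was fixed beforehand. The difference in gene deserts turned from -0.519 to 0.136 percentage points with gene-free intervals of 250 kb or more. The log2 ratio of reads in genes over deserts (difference 0.0661) became -0.0103 with reads summed over lines of 1 position and -0.0049 without the top 1% of reads, and the matching difference in the share with 1 read was 0.247 percentage points; the cause was not tested.

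Counts of called windows depended on how many could be tested. From 674 of 1309 windows of 50 kb they became 2822 of 49346 without the filter, of which 231 were higher in BrokenHeart, 278 of 600 with distinct positions, 212 of 528 with at least 2 reads, 29 of 128 after thinning, 374 of 653 at 25 kb and 1205 of 2653 at 100 kb. Leaving out 1 replicate gave 177 to 1451 windows, the lowest without C57bl6J replicate 2 and the highest without BrokenHeart replicate 3. For loci, 748 of 1882 became 1314 of 20282 without the filter, of which 207 were higher, 493 with at least 2 reads, 178 of 647 after thinning and 353 to 900 with 1 replicate left out, the lowest without C57bl6J replicate 2. Without either C57bl6J replicate the remaining one is assumed to vary as the BrokenHeart tables do.

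Replicate numbers are only numbers here: deviations from the group mean over 2486 windows of 1 Mb correlated at -0.109 and 0.0879 for equal numbers. With the replicate block, 244 windows and 335 loci were called. Of the 24 named loci, 23 still passed under the replicate block (Irf2bp2 did not), and Tank, Tbr1 and Zbtb18 did not pass with distinct positions; the window at chr15:100950001-101000000 did not pass without BrokenHeart replicate 2. No named window or locus changed direction under any alternative in which it was tested. Depth limits the BrokenHeart values: the Hox clusters rest on 7 to 20 insertions a replicate and the endothelial genes on 10 to 24.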
